A study of Mus musculus with 42 samples.

Results

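The 31 genes described here encode the blood-clotting factors, the inhibitors that restrain them and the proteins of clot dissolution. They were chosen by symbol, not by any measured value, and all 31 were found in both count tables, among 55573 gene identifiers. By role they are 16 procoagulant genes, 8 anticoagulant genes, 5 genes of fibrinolysis or its inhibition, and 2 related genes, Pzp and Fgl1. Messenger RNA was counted in whole liver of male C57B6/J mice to ask how glucocorticoid and androgen signalling interact. In the acute arm 6 mice each received vehicle, CORT (corticosterone, the principal glucocorticoid made by mice), ENZA (enzalutamide, an androgen receptor blocker) or CORT with ENZA. In the chronic arm 6 mice each received vehicle, CORT or CORT with ENZA, and the 42 samples include no chronic group given ENZA alone. All mice were of that 1 strain and carried no engineered allele named in the labels. The sources used here give no ages, doses, routes or lengths of the acute and chronic treatments. Samples are named below by their labels (L1A to L36A in the acute arm, plain numbers in the chronic arm), each read as 1 mouse. The labels do not say this outright, so p-values measure the spread between these samples.

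Clotting runs as a cascade of serine proteases that circulate as inactive precursors, most of them made by hepatocytes. Tissue factor with factor VII starts it, factors IX and X with their cofactors VIII and V amplify it, thrombin (from prothrombin, F2) cuts fibrinogen into fibrin, and factor XIII crosslinks the fibrin. Antithrombin, the protein C and protein S pair, the protein Z pathway and tissue factor pathway inhibitor restrain it, and plasmin (from plasminogen, Plg) dissolves the clot. In the liver these genes are read by hepatocyte transcription factors, and the fibrinogen genes are also induced in the acute-phase response to inflammation.

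Depth was 18674151 to 20464521 counted reads per acute library and 15381724 to 19581723 per chronic library. All 31 members passed the low-count filter in both arms, and together they took 2.58 to 4.95% of a library's normalised counts. RNA was extracted with a Qiagen kit in the acute arm and a Macherey-Nagel kit in the chronic arm, so kit and duration cannot be told apart in levels compared across arms. The 6 hepatocyte markers (Alb, Apoa1, Ttr, Apob, Tat, Serpina1c) summed to 60514 to 138944 CPM (read counts scaled to a common library size), and 0 of the 6 was at 0 in any group. Summed levels of other cell types over the 42 mice were 142 to 367 CPM for 8 endothelial, 141 to 523 for 7 stellate, 79.2 to 551 for 7 Kupffer cell and 66.9 to 456 for 5 erythroid markers. They stayed at or under 17.5 CPM for 4 cholangiocyte, 17.0 for 6 platelet, 8.41 for 4 B cell, 3.38 for 4 neutrophil and 2.52 for 3 T cell markers. Bulk counts of whole liver cannot tell fewer cells of a type from less RNA per cell. Fkbp5, a glucocorticoid-induced cochaperone gene, rose with CORT in both arms (log2 fold change 1.26 ± 0.24 SE, adjusted p = 0.00595, and 2.89 ± 0.40, adjusted p = 0.000108).

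Per kilobase of exon, the fibrinogen chains led the list in chronic vehicle mice. Fgg stood at 2127 CPM per kb, Fga at 1873 and Fgb at 1458, followed by vitronectin (Vtn) at 1111 and Pzp at 888. The bottom of the order was held by F8 at 1.57, F3 (tissue factor) at 1.48 and Tfpi at 1.20 CPM per kb, genes known chiefly from cells other than hepatocytes. Acute vehicle mice had the same 5 genes at the top, in the order Fga (1730), Fgg (1604), Vtn (1556), Fgb (945) and Pzp (910), and the same 3 at the bottom. Lengths are unions of all annotated exons, so a gene with long rare isoforms is placed lower.

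Chronic treatment changed members in every comparison, mostly downward. With CORT against vehicle 7 of 31 members passed the test (22.6%, where 18.3% of all 13099 genes tested did), 1 higher and 6 lower (backgrounds 9.04% and 9.29%). Adding ENZA to CORT changed 8 members (25.8%, background 11.8%), 2 higher and 6 lower (6.99% and 4.86%). CORT with ENZA against vehicle changed 10 members (32.3%, background 18.6%), 2 higher and 8 lower (10.3% and 8.29%). The members' median log2 fold changes were -0.15, -0.02 and -0.14, beside -0.01, -0.00 and -0.01 over all genes tested. The share of members changed by CORT alone thus lay near the background. These 3 comparisons share groups pairwise, so their counts are not independent. Leaving out 1 mouse at a time gave 4 to 8 members for CORT against vehicle, with 4 without CORT mouse 1 or 25 or vehicle mouse 10 or 13. It gave 5 to 9 for CORT with ENZA against CORT, with 5 without CORT with ENZA mouse 17, and 8 to 11 for CORT with ENZA against vehicle.

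**Figure D1:**
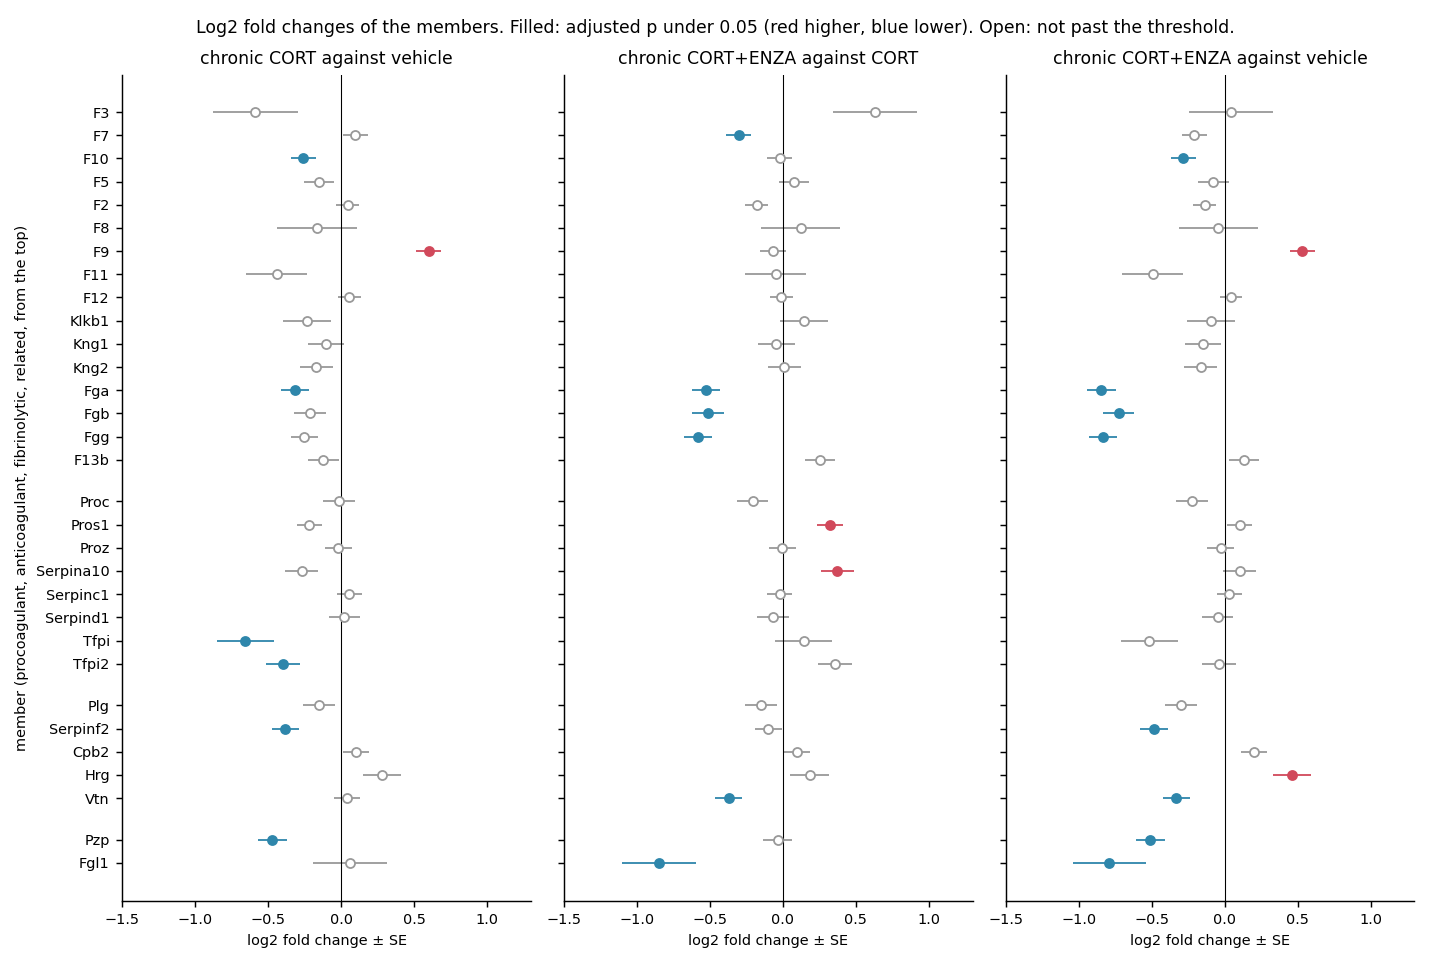
Log2 fold changes (x axis, points with bars of ± SE) of the 31 members (rows, by role) in the 3 chronic comparisons, each fitted on 18 mice. Filled points passed an adjusted p of 0.05, and the fibrinogen chains are the members furthest below 0 with short bars in both comparisons that involve ENZA, while F9 is the 1 filled point above 0 with CORT alone.

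The 3 fibrinogen chain genes fell together when ENZA was added to chronic CORT. Their products assemble into 1 hexameric protein, the precursor of fibrin. Fga ranged over 4346, 5686 and 6836 CPM (lowest, median, highest of 6) in vehicle mice, 4073, 4546 and 5018 with CORT, and 2920, 3103 and 3344 with CORT and ENZA. Every mouse on CORT with ENZA lay below every mouse of the other groups. Fga fell by 0.53 ± 0.10 against CORT (adjusted p = 0.00136) and by 0.84 ± 0.10 against vehicle (adjusted p = 5.56e-06), to 0.557 times the vehicle level.

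Fgb ranged over 3830, 5764 and 6527 CPM in vehicle, 4385, 4694 and 5417 in CORT and 3005, 3315 and 3689 in CORT with ENZA mice. Fgg ranged over 3637, 4664 and 5138 CPM, then 3382, 3637 and 4361, then 2308, 2456 and 2772. For both chains the mice on CORT with ENZA again lay below all 12 others. Against CORT, Fgb fell by 0.51 ± 0.11 (adjusted p = 0.00418) and Fgg by 0.58 ± 0.10 (adjusted p = 0.000454). Against vehicle the changes were -0.73 ± 0.11 for Fgb (adjusted p = 8.85e-05) and -0.84 ± 0.10 for Fgg (adjusted p = 5.29e-06). With CORT alone Fga passed the test, at -0.32 ± 0.10 (adjusted p = 0.0282), while Fgb (-0.21 ± 0.11, adjusted p = 0.182) and Fgg (-0.25 ± 0.10, adjusted p = 0.0739) did not. Both passed without vehicle mouse 14 (adjusted p = 0.0254 and 0.0339), and Fgg also without CORT mouse 3 (0.0418) and by DESeq2 (0.0473). The ranges of CORT and vehicle mice overlapped for all 3 chains. The Fga call with CORT was lost without CORT mouse 1, 25 or 26 or vehicle mouse 10 or 13 (adjusted p 0.0516 to 0.0788), without the low-count filter (0.0948) and in a fit of those 2 groups alone (0.0632). The 6 calls of the chains in comparisons that involve ENZA held in all 23 alternatives run for each.

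In GRCm38 the chains lie side by side on chromosome 3, Fgg at 83007724 to 83015049 and Fga at 83026076 to 83033627 on the plus strand, and Fgb at 83040141 to 83049863 on the minus strand. A predicted gene on the other strand overlaps Fgg, and no source used here gives the strand setting of the counting, so reads of that partner cannot be told apart. Within the chronic arm the ratio of Fga to Fgb per kb ranged over 1.18 to 1.45 in vehicle, 1.12 to 1.28 in CORT and 1.15 to 1.23 in CORT with ENZA mice. The ratio of Fgg to Fgb per kb ranged over 1.27 to 1.73, 1.39 to 1.47 and 1.33 to 1.40 in the same order, with means of 1.42 ± 0.03 (SD, n = 6) in CORT and 1.35 ± 0.03 in CORT with ENZA mice, a difference that was not tested. In acute mice the ratio of Fga to Fgb ran from 1.47 to 1.93, above every chronic mouse, a difference in which kit and duration cannot be told apart.

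Because the chains moved together, the stretches just upstream of their starts are printed here, with that of F9, the member that rose furthest in chronic CORT mice. They come from RefSeq promoter windows on GRCm38.p6 (250 bases before to 50 after a start, 26 of 31 members matched), trimmed to end before the first start that RefSeq or GENCODE M21 annotates. Capitals mark matches, on either strand, to 4 motifs: TTGCNNAA (C/EBP factors), GTTAAT (an arm of the HNF1 site), TTCNNNGAA (STAT factors) and AGAACA (an arm of the site bound by glucocorticoid and androgen receptors).
Fga, chr3:83025903-83026075, plus strand: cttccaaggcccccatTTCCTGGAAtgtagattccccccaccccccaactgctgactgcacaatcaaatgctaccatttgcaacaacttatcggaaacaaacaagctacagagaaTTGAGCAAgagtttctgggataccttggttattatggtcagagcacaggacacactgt
Fgb, chr3:83049864-83050113, minus strand: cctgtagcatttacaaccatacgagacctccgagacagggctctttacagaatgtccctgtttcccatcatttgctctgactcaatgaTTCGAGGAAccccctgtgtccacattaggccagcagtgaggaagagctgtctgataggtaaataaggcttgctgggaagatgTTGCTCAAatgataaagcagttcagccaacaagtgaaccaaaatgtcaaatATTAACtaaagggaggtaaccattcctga
Fgg, chr3:83007474-83007723, plus strand: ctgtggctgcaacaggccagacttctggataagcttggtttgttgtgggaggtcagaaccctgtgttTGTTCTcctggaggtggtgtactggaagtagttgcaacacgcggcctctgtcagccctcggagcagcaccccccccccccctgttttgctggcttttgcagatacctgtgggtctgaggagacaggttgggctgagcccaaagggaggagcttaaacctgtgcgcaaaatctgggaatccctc
F9, chrX:59999214-59999463, plus strand: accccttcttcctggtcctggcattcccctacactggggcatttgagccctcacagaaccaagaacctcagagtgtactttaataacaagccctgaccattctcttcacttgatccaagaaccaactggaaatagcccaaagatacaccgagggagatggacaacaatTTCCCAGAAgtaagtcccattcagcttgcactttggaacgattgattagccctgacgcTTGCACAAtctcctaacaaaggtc

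The Fga window held a STAT match 234 bases and a C/EBP match 135 bases before the RefSeq start. It also held an HNF1 match at 43 bases, beyond the GENCODE start and so not printed. Fgb held the same 3 kinds of match at 162, 80 and 29 bases before its start, and F9 a STAT match at 82 and a C/EBP match at 24. Fgg held 1 match, to the receptor arm, 183 bases before its start. Of the 26 members with a window, 9 held the C/EBP motif (34.6%, against 10.8% of all 32851 windows of that length), 8 the HNF1 arm (30.8% against 7.1%), 5 the STAT motif (19.2% against 8.3%) and 12 the receptor arm (46.2% against 19%). A member was counted if any of its windows matched (29 windows for 26 members), while the background counts single windows, so the 2 shares are not strictly alike. The full receptor site, 2 such arms facing each other 3 bases apart, was in 0 members and 0.00913% of windows. An HNF4 motif, CAAAGTCCA, was in 0 members and 0.475% of windows. A match describes letters in a window and no binding was measured.

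The sum of the hepatocyte markers was low, like the fibrinogen chains, in chronic mice on CORT with ENZA. The 6 markers summed to 100669 to 120340 CPM in chronic vehicle mice, 90065 to 125766 with CORT and 60514 to 81670 with CORT and ENZA, a range below both other groups. Of the 6, 2 fell in CORT with ENZA against CORT, Alb by 0.65 ± 0.13 (adjusted p = 0.00189) and Ttr by 1.01 ± 0.10 (adjusted p = 2.46e-06). With CORT alone the 6 did not share the direction of the chains: 3 were above 0 (median log2 fold change 0), 1 rose and 0 fell. Alb made up most of the sum, which without it was 21103 to 29595 CPM in vehicle, 22035 to 26735 in CORT and 18243 to 21989 in CORT with ENZA mice. As a share of the marker sum the groups overlapped: the chains made up 11.5 to 16.3% in vehicle, 9.58 to 16.4% in CORT and 10.1 to 15.0% in CORT with ENZA mice. With Alb left out of the markers the same shares were 56.0 to 74.4%, 47.3 to 59.5% and 40.7 to 51.4%, so that CORT with ENZA mice again lay below all vehicle mice and overlapped CORT mice. Of 7 Kupffer cell markers, all were above 0 with ENZA added to CORT (median log2 fold change 0.76) and 1, Cd5l, rose by 1.33 ± 0.40 (adjusted p = 0.0392), with summed levels of 79.2 to 149 CPM in CORT and 115 to 549 CPM in CORT with ENZA mice. Of 7 stellate cell markers, 6 were above 0 (median 0.54) and 1, Col3a1, rose by 1.74 ± 0.52 (adjusted p = 0.0392), with sums of 205 to 305 and 187 to 523 CPM. With CORT against vehicle the medians were -0.88 for Kupffer cell markers (1 fell) and -0.60 for stellate cell markers (2 fell), where 18.3% of all genes passed. With CORT and ENZA against vehicle they were 0.02 and -0.08, and 0 passed (18.6% of all genes). Chronic vehicle mice summed to 87.0 to 319 and 216 to 334 CPM. The part of all these markers in the fall of the chains was not tested.

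**Figure D2:**
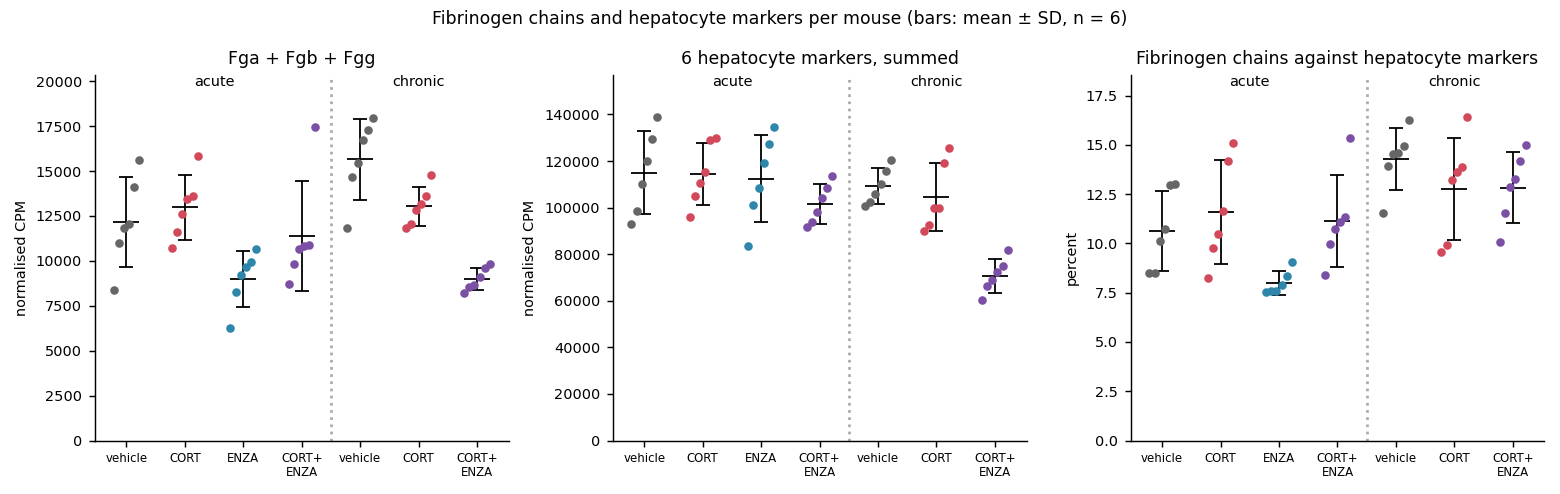
Sum of the 3 fibrinogen chains (left, CPM), sum of the 6 hepatocyte markers (middle, CPM) and the first as a percent of the second (right) in each of 42 mice, by group, with mean ± SD (n = 6). Chronic CORT with ENZA mice are the lowest chronic group in both sums (8233 to 9805 and 60514 to 81670 CPM), while their percent, 10.1 to 15.0, overlaps the other chronic groups.

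F9, which encodes factor IX, a vitamin K-dependent protease of the amplification step, was the 1 member that rose with chronic CORT. It ranged over 165, 197 and 233 CPM in vehicle mice, 258, 302 and 331 with CORT, and 246, 287 and 305 with CORT and ENZA. All 12 CORT-treated chronic mice lay above all 6 vehicle mice. F9 rose by 0.60 ± 0.09 with CORT (1.52 times, adjusted p = 0.000103) and by 0.53 ± 0.09 with CORT and ENZA (1.45 times, adjusted p = 0.000211). Adding ENZA to CORT left it at -0.07 ± 0.09 (adjusted p = 0.669). Both calls held in all 23 alternatives run for each. The gene lies on chromosome X at 59999464 to 60030759, plus strand.

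Factors VII and X, the vitamin K-dependent proteases that start the cascade and make thrombin, are coded side by side on chromosome 8 (F7 at 13026034 to 13035809, F10 at 13037308 to 13056676), and they fell in different comparisons. F7 ranged over 102, 107 and 123 CPM in vehicle, 98.5, 119 and 129 in CORT and 72.7, 97.6 and 108 in CORT with ENZA mice. It fell by 0.30 ± 0.09 when ENZA was added to CORT (adjusted p = 0.0299), with 4 of 6 mice below all CORT mice. F10 ranged over 392, 453 and 497 CPM, then 331, 377 and 408, then 315, 368 and 412. It fell by 0.26 ± 0.09 with CORT (adjusted p = 0.0386) and by 0.29 ± 0.09 with CORT and ENZA against vehicle (adjusted p = 0.0246), and each time 4 of 6 treated mice lay below all vehicle mice. The F7 call was lost without CORT mouse 2, 3 or 27 or CORT with ENZA mouse 17 (adjusted p 0.0551 to 0.0611). The F10 call with CORT was lost without any 1 of 10 of the 18 mice (CORT 1, 25, 26 and 27, vehicle 10, 11, 13 and 15, CORT with ENZA 6 and 17, adjusted p 0.0514 to 0.0946), and against vehicle with ENZA without CORT with ENZA mouse 5 or 17 or vehicle mouse 10 or 15 (0.0503 to 0.0605). Both F10 calls were also lost without the low-count filter (adjusted p = 0.132 and 0.0762) and without mice 11 and 18 together (0.0507 and 0.0738). The F10 call with CORT was lost in a fit of those 2 groups alone too (0.0537).

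The other 10 procoagulant genes passed the test in no comparison of either arm. Of the cofactors, F5 ranged from 510 to 833 CPM and F8 from 7.80 to 23.8 CPM over the chronic mice. Prothrombin (F2), the precursor of thrombin, ranged from 1406 to 2064 CPM, and was at -0.18 ± 0.08 with ENZA added to CORT (adjusted p = 0.148). F3, the tissue factor gene, had a mean of 3.74 ± 1.88 CPM (SD, n = 6) in vehicle mice, 2.48 ± 0.48 with CORT and 3.85 ± 1.06 with CORT and ENZA, and its changes of -0.59 ± 0.29 and 0.63 ± 0.29 did not pass (adjusted p = 0.174 and 0.170), though the first did without vehicle mouse 14 (-0.77, adjusted p = 0.0364). Of the contact system, F11, which codes for the precursor of factor XIa, was at -0.44 ± 0.21 with CORT (adjusted p = 0.152) and -0.49 ± 0.21 with CORT and ENZA (adjusted p = 0.112, 0.0404 in a fit of those 2 groups alone and 0.0397 without CORT mouse 1). F12, whose product starts contact activation, had log2 fold changes between -0.01 and 0.05 in the 3 chronic comparisons. The kininogen genes Kng1 and Kng2 and the plasma kallikrein gene Klkb1 had changes between -0.24 and 0.14, and share sequence with each other or with a predicted gene, so their counts are uncertain. F13b, the carrier subunit of factor XIII, was at 0.25 ± 0.10 with ENZA added (adjusted p = 0.119), and passed without CORT with ENZA mouse 18 (0.33, adjusted p = 0.0186).

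Among the 8 anticoagulant genes, 2 fell with chronic CORT and 2 others rose when ENZA was added, and 0 passed between CORT with ENZA and vehicle (18.3%, 11.8% and 18.6% of all genes passed in these comparisons). With edgeR 1 of the 8 had an unadjusted p under 0.05 in that last comparison, beside 4114 of all 13099 genes tested. DESeq2 also called 0 of the 8. Tfpi passed there without vehicle mouse 11 (-0.63, adjusted p = 0.0187), without CORT with ENZA mouse 18 (-0.61, adjusted p = 0.0313) and without both (-0.72, adjusted p = 0.00555). Tfpi, whose product blocks the tissue factor and factor VIIa complex, ranged over 3.86, 6.87 and 8.20 CPM in vehicle, 2.82, 4.09 and 5.67 in CORT and 3.20, 4.72 and 6.03 in CORT with ENZA mice. It fell by 0.66 ± 0.20 with CORT (adjusted p = 0.0244), and 3 of 6 CORT mice lay below all vehicle mice. Tfpi is known from endothelium, whose 8 markers summed to 180 to 367 CPM in vehicle and 170 to 309 CPM in CORT mice. Of these 8 markers 0 passed the edgeR test with CORT, and 2 had an unadjusted p under 0.05, beside 4173 of all 13099 genes tested. Most lay in the direction of Tfpi, with 1 of 8 above 0 and a median log2 fold change of -0.19. With CORT and ENZA against vehicle 1 of 8 was again above 0, with a median of -0.33. The part of endothelial cells in the Tfpi result was not tested. The call was lost without CORT mouse 1, 2 or 3 or vehicle mouse 10, 12 or 14 (adjusted p 0.0506 to 0.0615).

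Tfpi2, a related Kunitz-type inhibitor, ranged over 45.2, 64.0 and 72.0 CPM in vehicle, 39.6, 47.7 and 53.2 in CORT and 52.8, 57.8 and 71.5 in CORT with ENZA mice. It fell by 0.40 ± 0.12 with CORT (adjusted p = 0.0229), and its 0.36 ± 0.12 with ENZA added did not pass (adjusted p = 0.051), though 5 of 6 mice lay above all CORT mice. DESeq2 called that second change (adjusted p = 0.0324), and it also passed without CORT mouse 3, CORT with ENZA mouse 5 or 18 or vehicle mouse 12, with RLE factors and in a fit of those 2 groups alone (adjusted p 0.0307 to 0.0493). The fall with CORT was not called without CORT mouse 25 or 27 or vehicle mouse 13, 14 or 15 (adjusted p 0.0563 to 0.0605).

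Pros1, which encodes protein S, the cofactor of activated protein C, ranged over 47.3, 55.7 and 64.9 CPM in vehicle, 41.0, 48.3 and 57.8 in CORT and 54.8, 59.7 and 67.1 in CORT with ENZA mice. It rose by 0.32 ± 0.09 when ENZA was added (adjusted p = 0.022), with 4 of 6 mice above all CORT mice. Serpina10, the inhibitor that acts with protein Z on factor Xa, ranged over 141, 183 and 206 CPM, then 118, 143 and 186, then 174, 186 and 234, and rose by 0.37 ± 0.11 (adjusted p = 0.0388). For both genes the values with CORT and ENZA overlapped the vehicle range and reached above it (0.10 ± 0.09 and 0.10 ± 0.11 against vehicle, adjusted p = 0.461 and 0.585). With CORT alone they were at -0.22 ± 0.09 and -0.27 ± 0.11 (adjusted p = 0.0897 and 0.106), but Pros1 passed without CORT mouse 26 (0.043) and Serpina10 without CORT mouse 3 (0.0387). The Pros1 call was lost without CORT mouse 1 or CORT with ENZA mouse 17 or 18 (adjusted p 0.0507 to 0.0562). The Serpina10 call was lost without any 1 of CORT mice 1, 25, 26 and 27 and CORT with ENZA mice 4, 5, 16, 17 and 18 (0.0564 to 0.0978), and both were lost without the low-count filter (0.0514 and 0.0643). Serpina10 also lost its call without mice 11 and 18 together (0.0520).

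The remaining 4 anticoagulant genes did not pass in either arm. Serpinc1, which encodes antithrombin, the main inhibitor of thrombin, had group means of 2352 to 2445 CPM in the chronic arm and changes between -0.02 and 0.06. Protein C (Proc) was at -0.21 ± 0.11 with ENZA added (adjusted p = 0.232), with 5 of 6 mice below all CORT mice. Serpind1 (heparin cofactor) and Proz (protein Z) had changes between -0.07 and 0.02.

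Of the 5 fibrinolytic genes, the fall of Serpinf2 was the change seen with CORT alone. It encodes antiplasmin, the main inhibitor of plasmin, and ranged over 830, 1001 and 1132 CPM in vehicle, 643, 736 and 889 in CORT and 659, 693 and 795 in CORT with ENZA mice. It fell by 0.38 ± 0.09 with CORT (adjusted p = 0.00734) and by 0.48 ± 0.09 with CORT and ENZA (adjusted p = 0.00105), the latter with no overlap with vehicle. Both calls held in all 23 alternatives run for each. Vtn encodes vitronectin, which stabilises plasminogen activator inhibitor. It ranged over 1838, 2192 and 2719 CPM, then 2068, 2279 and 2566, then 1644, 1791 and 1978, so that all mice on CORT with ENZA lay below all mice on CORT. Vtn fell by 0.37 ± 0.09 against CORT (adjusted p = 0.0126) and by 0.33 ± 0.09 against vehicle (adjusted p = 0.0155), and the latter was lost without the low-count filter (adjusted p = 0.0501).

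Hrg encodes histidine-rich glycoprotein, a plasma protein that binds plasminogen and heparin. It ranged over 645, 816 and 1063 CPM in vehicle, 904, 1009 and 1116 in CORT and 701, 1209 and 1298 in CORT with ENZA mice. It rose by 0.46 ± 0.13 in CORT with ENZA against vehicle (adjusted p = 0.0191), where mouse 18 lay within the vehicle range and the other 5 above it. In a fit of those 2 groups alone the adjusted p was 0.0502. Without vehicle mouse 11 and CORT with ENZA mouse 18, Hrg passed in all 3 chronic comparisons, at 0.37 with CORT (adjusted p = 0.00341) and 0.28 with ENZA added (adjusted p = 0.0314) in the others, and without mouse 18 alone it passed with CORT (adjusted p = 0.0402). Plg itself was at -0.30 ± 0.11 against vehicle (adjusted p = 0.0603, 0.0442 by DESeq2, 0.0343 without CORT with ENZA mouse 4 and 0.0312 without vehicle mouse 14). Cpb2, the carboxypeptidase that trims plasminogen-binding sites from fibrin, was at 0.20 ± 0.09 (adjusted p = 0.134).

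Both related genes fell. Pzp, an abundant broad protease inhibitor of the macroglobulin family, ranged over 4450, 5866 and 6766 CPM in vehicle, 3869, 4081 and 4383 in CORT and 3713, 3972 and 4345 in CORT with ENZA mice. Both treated groups lay below all vehicle mice, at -0.47 ± 0.10 (adjusted p = 0.00277) and -0.51 ± 0.10 (adjusted p = 0.00123), and both calls held in all 23 alternatives run for each. An antisense predicted gene overlaps Pzp, with the same limit as for Fgg. Fgl1, a fibrinogen-like protein secreted by hepatocytes, ranged over 120, 180 and 238 CPM, then 132, 164 and 334, then 62.4, 99.6 and 148. It fell by 0.85 ± 0.25 with ENZA added (adjusted p = 0.0363) and by 0.79 ± 0.25 against vehicle (adjusted p = 0.0361), the widest errors among the changed members, with 4 of 6 mice below the other group each time. Its call against CORT was lost without CORT mouse 2 or 3 or CORT with ENZA mouse 4, 5, 6 or 16 (adjusted p 0.0538 to 0.0867). It was also lost in a fit of those 2 groups alone (0.0557). The call against vehicle was lost without CORT with ENZA mouse 4, 5, 6 or 16 or vehicle mouse 10, 11 or 13 (0.0629 to 0.0817), and both were lost without the low-count filter (0.101 and 0.115).

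**Figure D3:**
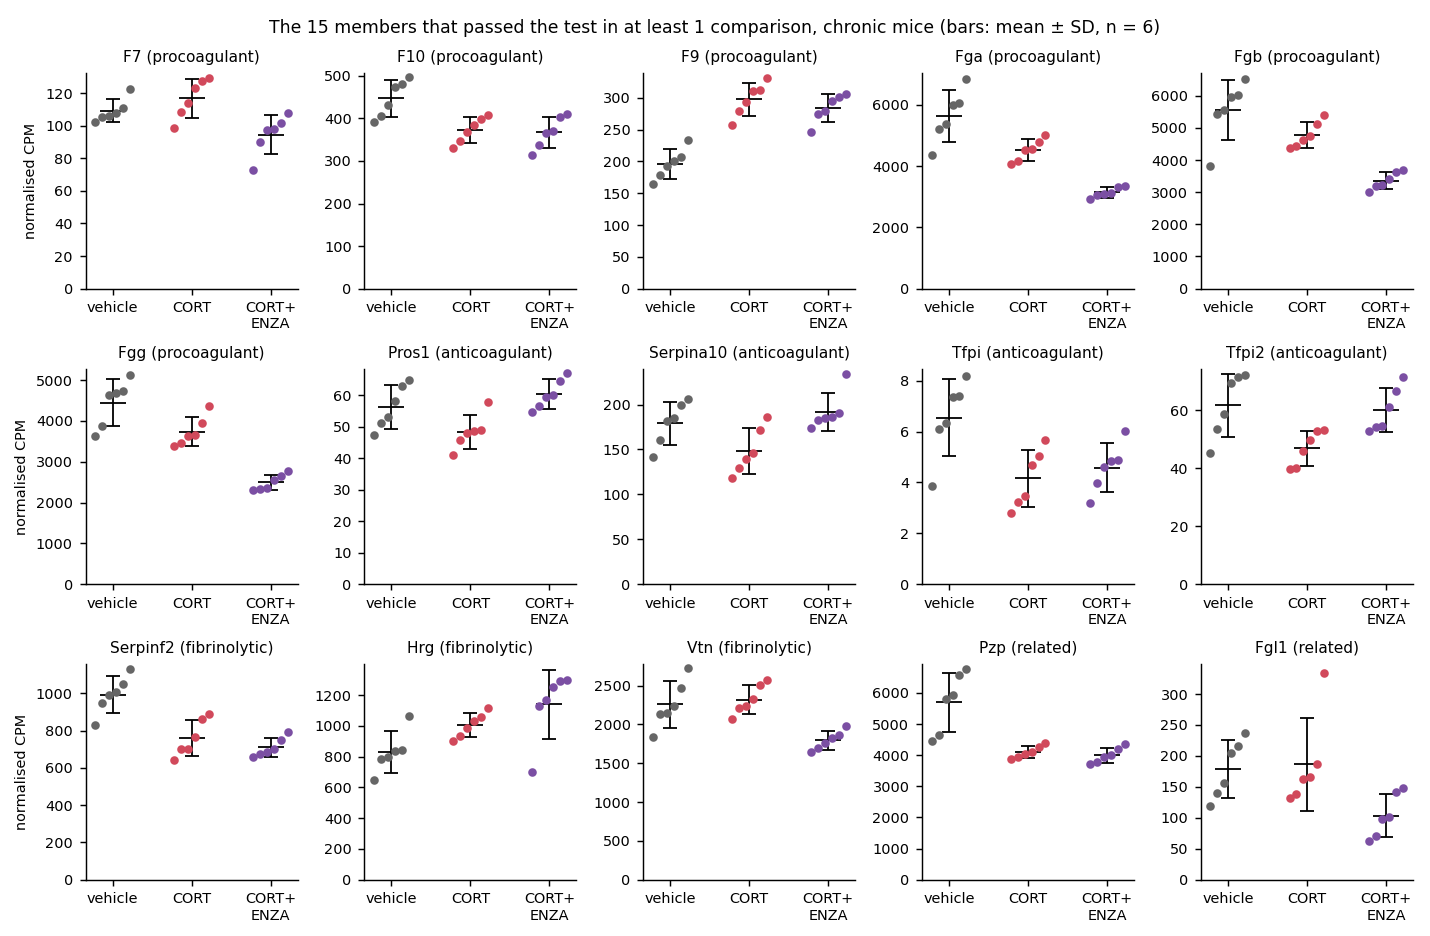
Normalised CPM (y axis, from 0) of the 15 members that passed the test in at least 1 comparison, 1 panel each, in the 18 chronic mice, with mean ± SD (n = 6). F9 is higher and Pzp lower in both CORT-treated groups without overlap with vehicle, and Fga, Fgb and Fgg are lowest in CORT with ENZA.

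Of 30 other genes of clotting, fibrinolysis and vitamin K processing found in the tables, 24 could be tested in the chronic arm. With CORT 5 rose and 3 fell (18.3% of all genes tested passed), and with ENZA added 2 rose and 3 fell (11.8%). With CORT and ENZA against vehicle 4 rose and 3 fell (18.6%). Serpine2, a protease inhibitor of thrombin and plasminogen activators, rose by 2.17 ± 0.20 with CORT (adjusted p = 1.3e-06) and by 1.88 ± 0.20 with CORT and ENZA (adjusted p = 2.71e-06). Serpina5, the protein C inhibitor gene, rose by 1.95 ± 0.58 and 2.54 ± 0.56 (adjusted p = 0.0241 and 0.00335). Mcfd2, which helps factors V and VIII leave the endoplasmic reticulum, rose by 0.44 ± 0.07 with CORT (adjusted p = 0.000317) and fell by 0.32 ± 0.07 with ENZA added (adjusted p = 0.00526). Hgfac, a protease related to factor XII, fell in all 3 comparisons, by 0.80 ± 0.09 with CORT and ENZA (adjusted p = 4.65e-06). Gas6, a vitamin K-dependent relative of protein S, fell by 1.02 ± 0.20 with CORT (adjusted p = 0.00203). Of 17 acute-phase and cytokine-signal genes, 5 rose and 3 fell with CORT (18.3% of all genes passed), Saa1, a classic inflammation marker, among the latter (-2.46 ± 0.51, adjusted p = 0.00311) and Hp (haptoglobin) among the former (0.62 ± 0.14, adjusted p = 0.00519). With ENZA added to CORT, where the fibrinogen chains fell, 2 of the 17 rose and 3 fell (11.8% of all genes passed). Orm3 rose by 2.77 ± 0.33 (adjusted p = 2.07e-05) and Saa3 by 1.53 ± 0.45 (adjusted p = 0.033), while Apcs fell by 1.16 ± 0.13 (adjusted p = 1.38e-05), Itih4 by 0.58 ± 0.09 (adjusted p = 0.000377) and Il6ra, the interleukin receptor chain, by 0.60 ± 0.19 (adjusted p = 0.0496). Saa3 levels were low, at 0.636 to 1.71 CPM with CORT. With CORT and ENZA, mouse 18 had 10.7 CPM of Saa3 and the other mice 0.950 to 3.79.

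In the acute arm 0 of 31 members passed the test in any of the 6 comparisons. The backgrounds over 13733 genes were 1.62% for CORT against vehicle, 1.31% for ENZA against vehicle, 0.175% for CORT with ENZA against CORT, 1.81% against ENZA, 2.47% against vehicle, and 0% for the interaction of CORT and ENZA. With edgeR 2, 10, 0, 4, 2 and 1 of the 31 members had an unadjusted p under 0.05 in that order. Over all 13733 genes the counts were 1934, 2002, 696, 2050, 2210 and 501. DESeq2 called 0 members in each comparison. The members' standard errors for CORT against vehicle ran from 0.07 to 0.41 on the log2 scale with a median of 0.12, beside a median of 0.10 in the same comparison of the chronic arm. The members' median log2 fold changes were -0.06 with CORT and -0.12 with ENZA alone (7 of 31 above 0), beside -0.01 and -0.00 over all genes tested.

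The 10 members with an unadjusted p under 0.05 for ENZA alone included the fibrinogen chains and Vtn. Fga ranged over 3174, 5105 and 7035 CPM in vehicle and 2653, 3951 and 4206 with ENZA, at -0.50 ± 0.17 (adjusted p = 0.166). Fgb was at -0.41 ± 0.15 (adjusted p = 0.201), Fgg at -0.37 ± 0.14 (adjusted p = 0.229) and Vtn at -0.33 ± 0.11 (adjusted p = 0.167), with overlap between the groups each time. Without mouse L19A (vehicle, the lowest of its group for all 3 chains) and CORT with ENZA mouse L36A, Fga passed, at -0.60 (adjusted p = 0.0419). Vehicle mouse L31A, the highest of its group for Fga (7035 CPM), stayed in that fit. With any 1 acute mouse left out, 0 members passed for ENZA against vehicle. The other members with such a p were F7, F11, F13b, Proc, Serpina10 and Tfpi2, with log2 fold changes from -0.31 to 0.29. F9 was at 0.14 ± 0.08 with acute CORT (adjusted p = 0.41).

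**Figure D4:**
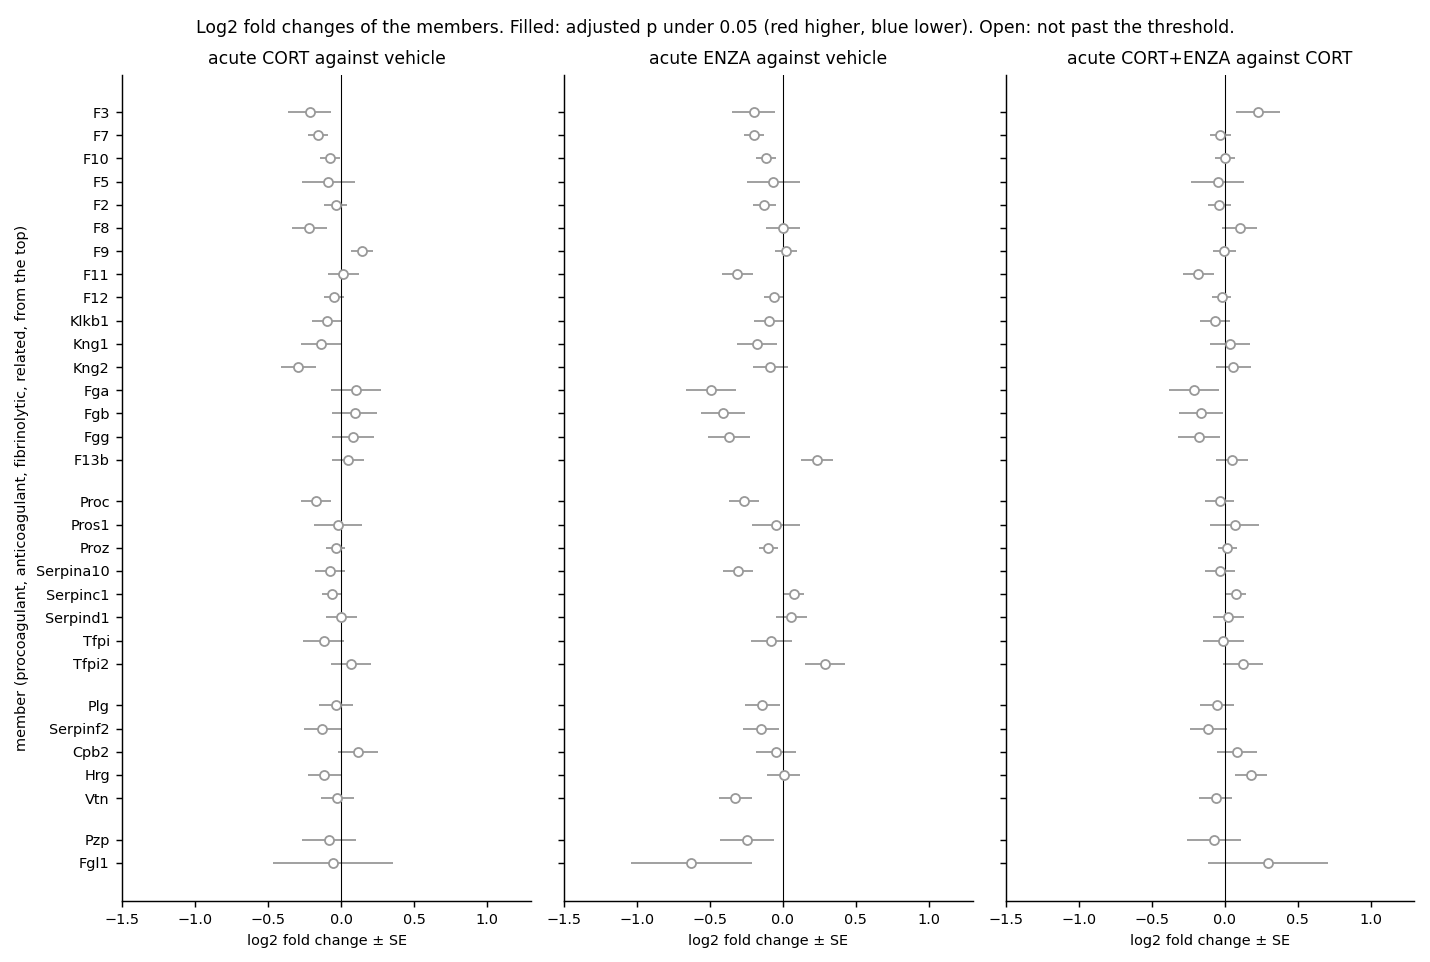
Log2 fold changes ± SE (x axis) of the 31 members (rows, by role) in 3 acute comparisons, each fitted on 24 mice. No point is filled, and with ENZA alone Fga (-0.50), Fgb (-0.41) and Fgg (-0.37) are among the lowest points.

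Whether CORT acted differently on a member in the 2 arms was tested as a difference of effects, each against the vehicle group of its own arm. F9 was the 1 member called (3.23% of members, background 6.17%), with a chronic effect 0.49 ± 0.12 above the acute one (adjusted p = 0.00705). Tfpi had the most negative difference, at -0.50 ± 0.23 (adjusted p = 0.208). For ENZA added to CORT, 0 members differed between arms (background 1.27%, 0 called by DESeq2). By edgeR 5 of the 31 members had an unadjusted p under 0.05 there, beside 1914 of 14138 genes tested. The chains were at -0.34 ± 0.21 (Fga), -0.38 ± 0.20 (Fgb) and -0.44 ± 0.18 (Fgg), with adjusted p of 0.497, 0.389 and 0.257, so their fall with chronic ENZA is not shown to differ from the acute result. No mouse was left out of the fits across arms. They kept acute CORT with ENZA mouse L30A, where Fga was at 7618 CPM and the next highest mouse of its group at 4656.

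Single mice carried many members at a time. CORT with ENZA mouse L30A was the highest of its group for 24 of 31 members and vehicle mouse L31A for 19. In both, acute-phase genes stood far above their groups: Saa1 was at 3179 CPM in L30A (34.8 to 105 in the other 5) and 1443 CPM in L31A (16.2 to 56.2), and Lcn2 at 882 (12.6 to 41.8) and 181 (4.07 to 10.9). Fga was at 7618 CPM in L30A and 7035 in L31A, and Fgl1 at 772 and 516 CPM, the highest values of those groups. Without these 2 mice the count of members remained 0 in all 6 acute comparisons. ENZA mouse L17A was the highest of its group for 20 members, and ENZA mouse L29A the lowest for 19. The fibrinogen chains summed to 10659 CPM in L17A and 6280 CPM in L29A, the highest and lowest of that group. Lcn2 was at 4.29 CPM in L17A and 58.4 in L29A (4.72 to 5.90 in the other ENZA mice), and Saa1 at 58.7 and 95.8 (11.5 to 26.3). The part of acute-phase genes in these levels was not tested. In the chronic arm vehicle mouse 14 was the lowest of its group for 23 members, and CORT with ENZA mice 4 and 18 were the highest for 22 and the lowest for 19. Mouse 18 also stood above its group for Saa1 (49.4 CPM, 7.70 to 16.7 in the others) and Lcn2 (61.7 CPM, 5.60 to 13.6).

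**Figure D5:**
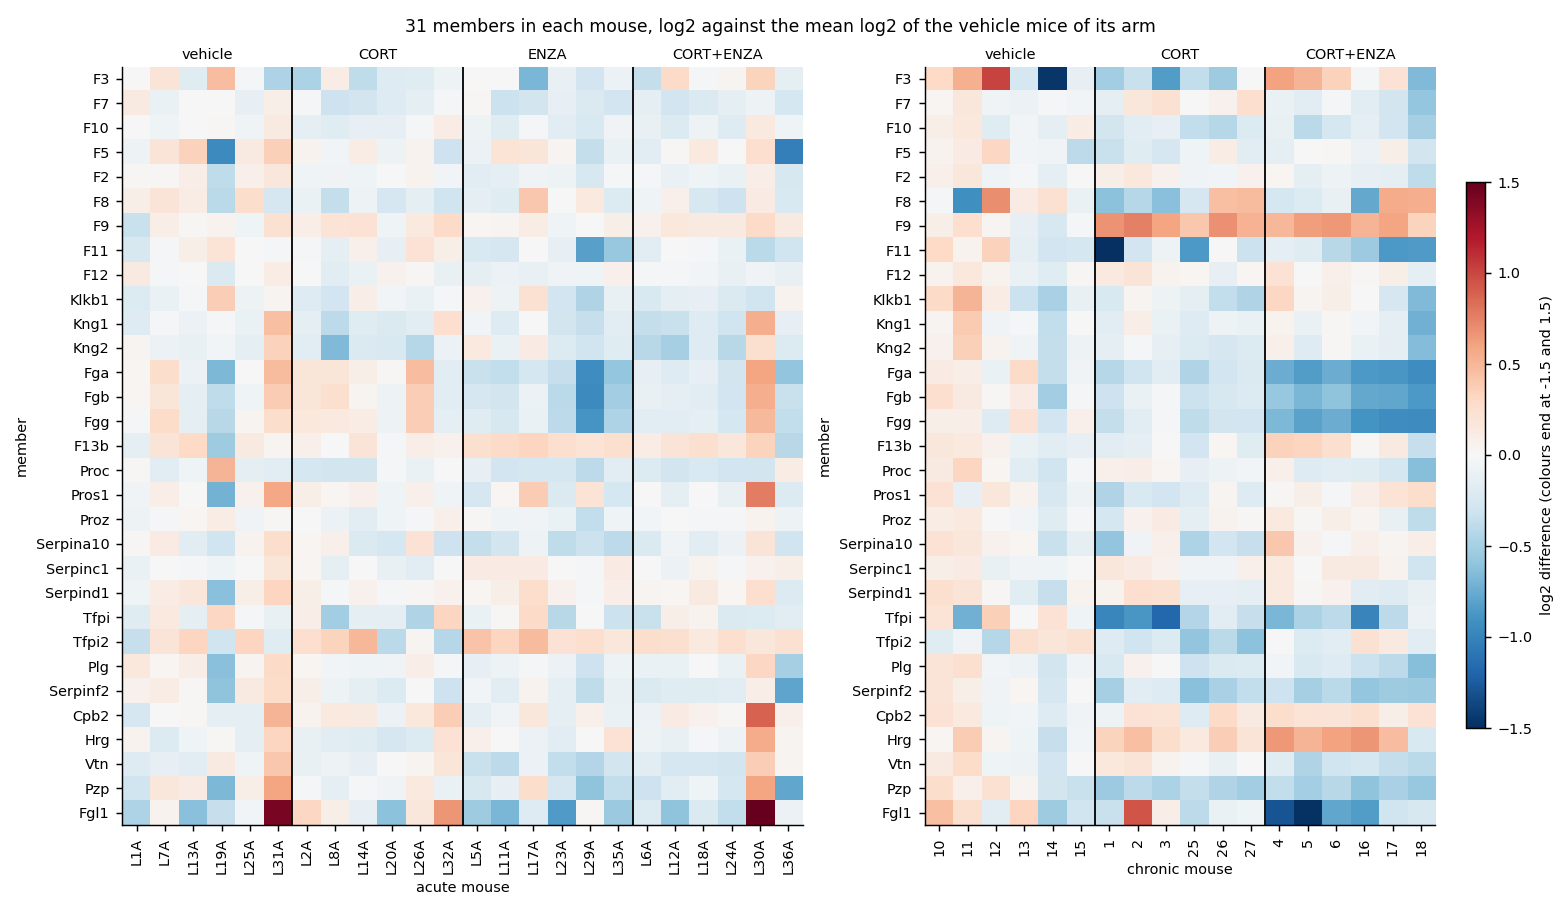
Log2 level of the 31 members (rows) in each of 42 mice (columns, grouped), relative to the mean log2 level of the vehicle mice of the same arm, with red higher and blue lower. The blue block of Fga, Fgb and Fgg in chronic CORT with ENZA mice and the red row of F9 in chronic CORT-treated mice stand out, as do the columns of L30A and L31A, where Fgl1 is highest.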

How the data were processed

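Total RNA from snap-frozen livers was made into stranded mRNA libraries and sequenced as 100 bp paired ends, per the labels' protocols. Each arm has 1 deposited table of unnormalised counts of reads by gene. Per the submitters' processing notes the authors used FastQC, MultiQC, STAR 2.7.3a, HTSeq 0.12.4 and build mm10 (GRCm38). The annotation release and the strand setting of counting were not given in the sources used here. Reads aligned to several places, which went to no gene, made up 9.34 to 12.82% of acute and 18.59 to 22.68% of chronic table totals, the counter's summary lines included.

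From these counts, edgeR 4.0.16 (R 4.3.3) kept genes by filterByExpr (minimum count 10, total 15), scaled libraries by TMM and fitted a robust quasi-likelihood model per arm (24 and 18 libraries), or to all 42 for differences between arms. Calls were made at 0.05 after Benjamini-Hochberg adjustment across every gene tested in a comparison. The fit was tested on simulated data. CPM are counts divided by the TMM-scaled library size, and a gene's shared sequence is the share of its 50-base stretches found in another gene. Alternatives were DESeq2 1.42.0, RLE factors, no filter, only the groups compared, sets of consecutive acute mouse numbers as a term, and libraries left out. Symbols were paired with 55394 of 55573 identifiers and coordinates come from GENCODE M21. No library was a repeat of another in its group, and libraries of different groups were not compared in this way. Each member is named, with full values where it passed a test. The members, gene lists and alternatives were chosen with earlier results of these data known, and leaving out L30A and L31A was chosen after their values were seen.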

Additional observations from a re-analysis of the deposited data

Results flagged for a closer look

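A mouse was picked out when its gap to the nearest mouse of its group took a larger part of the group's range for a member than Dixon's 95% critical value for 6 samples. This held 31 times in 217 sets of values, 1 set per member and group. For independent sets about 1 in 20, or 10.85, would be flagged by chance. Members often moved together within a mouse, so the sets are not independent and an excess was not tested.

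CORT with ENZA mouse L30A was far above its group for 9 members: Kng1 at 3137 CPM, Kng2 at 266 CPM, Fga at 7618 CPM, Fgb at 5173 CPM, Fgg at 4641 CPM, Pros1 at 73.4 CPM, Cpb2 at 663 CPM, Hrg at 1976 CPM and Fgl1 at 772 CPM. Vehicle mouse L31A was far above its group for 5: Kng1 at 2929 CPM, Kng2 at 287 CPM, Serpinc1 at 2786 CPM, Cpb2 at 511 CPM and Fgl1 at 516 CPM. Kng1, Kng2, Cpb2 and Fgl1 are in both lists, and acute-phase genes were far above the group in both mice. The part of that response in these values was not tested.

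Vehicle mouse L19A was far below its group for F2 (1349 CPM), Plg (1569 CPM) and Serpinf2 (670 CPM) and above it for Proc (692 CPM). CORT with ENZA mouse L36A was below for F13b (93.8 CPM) and above for Proc (526 CPM). CORT mouse L32A was above for Kng1 (2559 CPM) and Hrg (1563 CPM). ENZA mouse L29A was below for Proz (380 CPM) and Plg (1947 CPM), L17A above for Serpina10 (164 CPM) and L35A above for F12 (656 CPM). In the chronic arm, CORT mouse 2 was above for Kng1 (2333 CPM) and Fgl1 (334 CPM), CORT with ENZA mouse 18 below for Kng1 (1321 CPM) and Hrg (701 CPM), and CORT with ENZA mouse 4 above for Serpina10 (234 CPM).

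The CORT effect on F9 differed between the arms by 0.49 on the log2 scale (adjusted p = 0.00705 by edgeR), with kit and duration not to be told apart.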

How the results depend on the processing

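Of 26 member results with a call, 14 held in every alternative run, and of 578 recomputed values 504 kept and 74 lost the call, with 0 reversed. Beyond these, 11 members gained a call in 1 or more chronic alternatives, 27 calls in all, 17 of them with single mice left out. The acute count of members stayed 0 in all alternatives except for ENZA against vehicle without libraries L19A and L36A, where it was 1. For chronic CORT against vehicle the count ranged from 4 to 8 with single mice left out. For chronic CORT with ENZA against CORT it was 5 with no low-count filter, which tests more genes, and ranged from 5 to 9 with single mice left out. The groups share no replicate numbers in the labels, and with sets of consecutive acute mouse numbers as a block the count of members stayed 0 in all 6 acute comparisons. No such block was made for chronic mice, whose numbers run in stretches of 1 treatment. These are CORT 1 to 3 and 25 to 27, CORT with ENZA 4 to 6 and 16 to 18, and vehicle 10 to 15. In that arm number order and treatment thus cannot be fully told apart. Over all genes, DESeq2 called 419, 382, 59, 442 and 566 in the acute comparisons of CORT with vehicle, ENZA with vehicle, and CORT with ENZA against CORT, ENZA and vehicle, where edgeR called 222, 180, 24, 248 and 339. In fits of the compared groups alone the first, second and last were 96, 94 and 203, without the filter ENZA with vehicle was 90 and CORT with ENZA against ENZA 156, without L19A and L36A the middle one was 39, and without L30A and L31A the last was 207. Between arms, DESeq2 called 310 in place of 179 for ENZA added to CORT, and without the filter the CORT effect had 509 in place of 873. Errors with chronic CORT were 0.29 for F3, 0.27 for F8, 0.25 for Fgl1 and 0.20 for Tfpi, and the part of depth in them was not tested. No scaling moved the median of all genes by 0.1.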

Other observations

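In acute mice the fibrinogen chains summed to 7.52 to 9.08% of the hepatocyte markers with ENZA alone, 8.48 to 13.0% with vehicle, 8.24 to 15.1% with CORT and 8.40 to 15.4% with CORT and ENZA. The marker sums of ENZA and vehicle mice covered 83540 to 134786 and 92940 to 138944 CPM. Of the other clotting genes, Serpine2 rose by 1.60 ± 0.38 (adjusted p = 0.0238) and Hgfac fell by 0.39 ± 0.09 (adjusted p = 0.0198) in acute CORT with ENZA against vehicle.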
